A study of Caenorhabditis elegans with 2 samples.

Results

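Chromosome V is the longest chromosome of the nematode Caenorhabditis elegans and carried 291 of the 2767 peaks that were listed for the chromatin protein CEC-7, or 10.5% of them. The 291 peaks are all entries of the deposited peak list that lie on V, so no measured value was used to choose them. The list comes from 1 chromatin immunoprecipitation (ChIP-seq) library of adult hermaphrodites of strain fem-2(b245), genotype fem-2(b245)III, grown at 20 degrees Celsius. A library of input DNA from the same strain and stage has no peak list of its own here. The labels call the animals young adults that contain a germline, whereas the growth protocol describes gravid adults. Both libraries carry the fem-2 mutation, and the study has no wild-type sample here. The precipitating antibody was an affinity-purified rabbit polyclonal against CEC-7. Whole worms were used, so a site bound in few cells and a site bound weakly in many cells cannot be told apart. Both libraries are labelled replicate 2, and no other replicate was analysed, so the values have no replicate error and differences between them were not tested.

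CEC-7 belongs to the proteins named for a chromodomain, a fold that in many proteins binds methylated histone tails. The fem-2 gene acts in sex determination. The arms of the worm's autosomes are rich in repeats and in young, expanded gene families, whereas the centres hold more of the conserved genes that most cells use. Chromosome V is known for its chemoreceptor genes. These encode membrane receptors coupled to G proteins, many of them made in sensory neurons that detect odours and other chemicals, and they lie in tandem clusters of several families (srh, str, sri, srj, srw, srx and others).

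Peak positions are given on WormBase WS220, as the authors deposited them. Genes come from RefSeq's table for assembly WBcel235, and a gene counts as being at a peak when its body, from first to last annotated base, lies within 500 bp of the peak. A stricter rule asks that a single peak cover more than 500 bp of the gene body. The table gives no strand, so gene starts are unknown, and a peak over overlapping or adjacent genes cannot be assigned to one of them. By the first rule 401 of the 4995 protein-coding genes of V were at a peak, 8.03%, and by the stricter rule 289 were, 5.79%. Over the whole genome the shares were 17.5% and 13.3% of 19971 protein-coding genes.

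Peaks on V were sparse and of moderate strength. Each Mb held 13.9 peaks (12.4 to 15.6, exact Poisson 95% interval), and 3.18% of the sequence lay under them. Width ran from 998 to 8678 bp with a median of 1851 bp and quartiles of 1442 and 2829.5 bp. The authors gave each peak a score, on a scale that the file does not state, and it ran from 50.08 to 1113.84 with a median of 103 and quartiles of 70.7 and 167. The median score was 108 on IV, 124 on I, 136 on II and 147 on III, so V had the lowest median of the 5 autosomes. Of the peaks on V, 115 (39.5%) scored above the median of the whole list.

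Nearly all of these peaks lay over protein-coding genes. Of the 291 peaks, 288 (99.0%) had a protein-coding gene within 500 bp, and 285 (97.9%) covered more than 500 bp of one. Protein-coding gene bodies make up 59.6% of the chromosome's length. That is a share of bases, and intervals as wide as these peaks would meet a gene more often. The share expected for such intervals was not computed. By exact edges, which are approximate since the builds differ, 170 peaks (58.4%) lay wholly inside a gene body. With a margin of 500 bp asked at each end, 103 did. A total of 38 peaks covered more than 500 bp of each of 2 or 3 neighbouring or overlapping genes, 5 of them wholly inside a gene body, and they had a median width of 3588 bp and a median score of 256. The 247 peaks that did so for 1 gene had medians of 1727 bp and 94.8. Width and score come from the same caller and were related over the 291 peaks, with a Spearman's rho of 0.71, so these medians are not separate facts. Genes at peaks were longer than the rest, with a median length of 2741 bp against 1682.5 bp, and a longer gene is more often touched by a peak wherever peaks lie.

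Along the chromosome, peaks were most frequent in the centre and near the left tip. With the length cut into 3 equal parts, the centre held 142 peaks (48.8%, exact 95% interval 42.9 to 54.7%), or 20.4 per Mb. The left arm held 77 at 11.0 per Mb and the right arm 72 at 10.3 per Mb. The median score was 117 in the centre (quartiles 83.7 and 243), 92.6 in the left arm and 87.8 in the right arm. In bins of 5% of the length, counts ran from 4 to 30. The bin from 55 to 60% held 30 peaks and the bin from 45 to 50% held 27. The lowest count, 4, was found in the 3 neighbouring bins from 5 to 20% and in the bin from 75 to 80%.

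**Figure D1:**
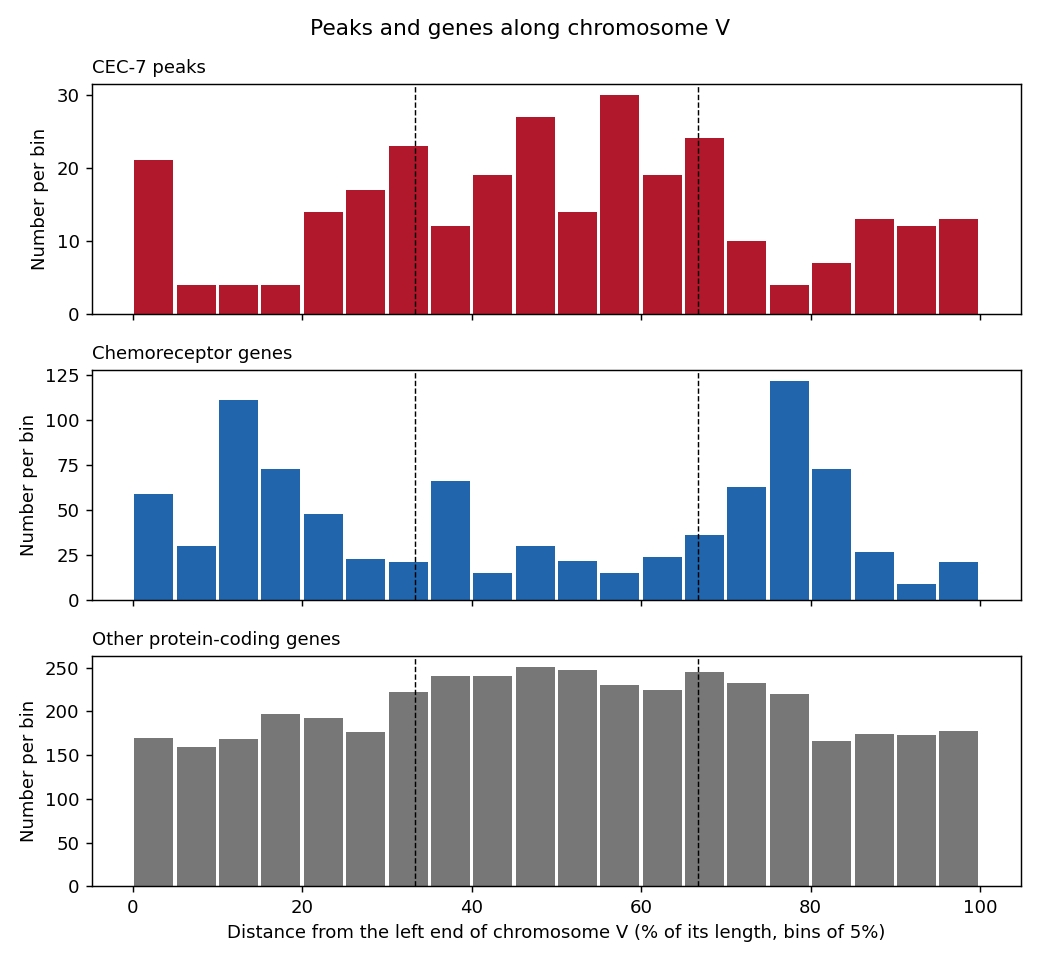
Number of CEC-7 peaks (top), chemoreceptor genes (middle) and other protein-coding genes (bottom) per bin of 5% of the length of chromosome V; dashed lines cut the length into 3 equal parts, the left arm, the centre and the right arm. The bin from 75 to 80% held 122 chemoreceptor genes and 4 peaks, and the bin from 55 to 60% held 15 chemoreceptor genes and 30 peaks.

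Several stretches poor in peaks were rich in chemoreceptor genes. The bin from 75 to 80% held 122 chemoreceptor genes among its 342 protein-coding genes and 4 peaks, and the bin from 10 to 15% held 111 among 279 and 4 peaks. The bin from 55 to 60%, with the most peaks, held 15 chemoreceptor genes among 245. Across the 20 bins, Spearman's rho between peaks and chemoreceptor genes was -0.57, and that between peaks and other protein-coding genes was 0.52. These bins come from 1 library and neighbouring bins are not independent, so the values are a description. The relation had exceptions. The bin from 5 to 10% had 4 peaks with 30 chemoreceptor genes, as many as the bin from 45 to 50%, which had 27 peaks. The leftmost bin had 59 chemoreceptor genes and 21 peaks, of which 13 lay in the first 200 kb. The bin from 90 to 95% had the fewest chemoreceptor genes, 9, and 12 peaks.

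Chemoreceptor genes themselves were almost without peaks. Of the 888 on V, counted by the symbols of their families, 6 lay within 500 bp of a peak, 0.676% (exact 95% interval 0.248 to 1.47%), against 395 of the other 4107 protein-coding genes, 9.62%. Peaks covered 670 of the 1566829 bp in chemoreceptor gene bodies, 0.0428%, and 5.75% of the base pairs in the other protein-coding genes. This measure does not depend on gene length, which had a median of 1566 bp for chemoreceptor genes and 1841 bp for the others. The chemoreceptor genes also lay farther from peaks, at a median of 62.5 kb from the nearest one, with quartiles of 26.0 and 152 kb. For the other genes the median was 34.1 kb, with quartiles of 9.88 and 86.9 kb. On the 4 other autosomes, 4 of 387 chemoreceptor genes were at a peak, and none of those passed the stricter rule.

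Each of the 6 chemoreceptor genes at a peak had another gene under the same peak or lay beside it without touching it. The gene srxa-6 was the single one to pass the stricter rule, with 587 bp under the peak V 20735594 to 20737040 (score 67.57). The whole width of that peak, 1447 bp, lay over dnj-25, which encodes a protein with a DnaJ domain, the module by which co-chaperones engage HSP70. The gene srx-87 had 83 bp under V 11566689 to 11568544 (score 111.25), of which 1741 bp lay over pms-2, a DNA mismatch repair gene. No peak reached the other 4 genes. By the tables' positions, str-208 lay 22 bp from the peak over tam-1 and srh-2 lay 374 bp from the peak over icl-1. Another, srsx-7, lay 443 bp from the widest peak of the chromosome. Since the builds differ, distances of this size are approximate.

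A total of 31 peaks, 10.7% of those on V, lay among chemoreceptor genes, meaning that at least 3 of the 10 nearest protein-coding genes were chemoreceptor genes. By the same measure 28.5% of the protein-coding genes of V lie in such surroundings. That share includes the chemoreceptor genes, each of which counts itself among its 10, so it is not a like figure for the peaks. Of the 4107 other protein-coding genes, 726 lie in such surroundings. Of the 31 peaks, 7 were in the left arm, 10 in the centre and 14 in the right arm. They had lower medians than the other 260, with a score of 82.6 (quartiles 64.1 and 112) against 109 (73.8 and 176) and a width of 1529 bp against 1884.5 bp. All but 1 of them covered more than 500 bp of a protein-coding gene, and the 25 genes so covered included 0 chemoreceptor genes.

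The strongest of these peaks over a gene body, V 723935 to 727926 (score 399.03), had 6 chemoreceptor genes among its 10 neighbours and covered 3595 bp of icl-1, the bifunctional enzyme of the glyoxylate cycle. The next, V 5914072 to 5917279 (score 382.12), lay over lrpr-1. The peak V 4958595 to 4962338 (score 240.07) lay over tam-1, which encodes a RING finger and B-box protein that affects expression of transgene arrays, with 8 chemoreceptor genes around it. The peak V 9851629 to 9852836 (score 67.35), over the histone acetyltransferase gene lsy-12, also had 8.

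The gene mes-4, which encodes a histone H3 lysine methyltransferase needed for germ cells, carried a pair of peaks, V 13434078 to 13435576 (score 82.57) and V 13435654 to 13437508 (score 102.03), amid 6 chemoreceptor genes. The gene syp-1, whose product builds the central region of the synaptonemal complex between paired chromosomes, carried V 16405861 to 16407436 (score 131.31). A further peak, V 2702644 to 2704172 (score 84.10), lay over nuo-5, a subunit gene of respiratory complex I, and was the last before the longest stretch without peaks. In the right arm, cand-1, which encodes a regulator of cullin ubiquitin ligases, carried 4 peaks with scores from 50.20 to 236.92, and the second longest such stretch began after the last of them. The gene tcc-1 carried a pair, with scores of 57.53 and 73.87.

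The other genes under these peaks were of several kinds. The strongest of them by score was sel-10 (126.75), which encodes the F-box protein of a ubiquitin ligase acting on Notch receptors, with hpo-31 beside it. The gene gly-20, of N-glycan synthesis, lay under a peak of score 60.70, and aipl-1, of actin filament turnover, under one of 65.49. A peak of score 87.88 covered immt-2, a gene of mitochondrial inner membrane structure, and pus-1, a pseudouridine synthase gene. Besides pms-2, penr-1 and duo-1, the rest were genes known by sequence names, among them T10C6.6 under the weakest peak of V (score 50.08).

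Among genes that are not chemoreceptors, the share at a peak was lower where chemoreceptor genes surrounded them. Inside such surroundings 32 of 726 were at a peak, 4.41%, and outside them 363 of 3381, 10.7%. By the stricter rule the shares were 3.58% and 7.75%. By position, 13.1% of the non-chemoreceptor genes were at a peak in the centre, 8.23% in the left arm and 6.62% in the right arm. These are shares within 1 library, given without a test.

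The longest stretches without a peak were also rich in chemoreceptor genes. The longest ran for 1001 kb in the left arm, from V 2704173 to 3704840, and held 276 protein-coding genes, 123 of them chemoreceptor genes. The second, V 16812244 to 17628870, ran for 817 kb with 193 genes, of which 63 were chemoreceptor genes, 20 belonged to the F-box, MATH and BATH families and 19 were C-type lectin genes. The 10 longest stretches made up 25.4% of the chromosome and held 42.5% of its chemoreceptor genes and 23.3% of its other protein-coding genes. Not all were of this kind. The stretch V 19195528 to 19635712, of 440 kb, had 6 chemoreceptor genes among 90, and V 18073960 to 18542038, of 468 kb, had 9 among 98.

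The left tip held a dense group of peaks. The first 200 kb held 13 peaks, or 65.0 per Mb, beside 11.0 per Mb in the whole left arm. All 13 lay within 90.9 kb and over 6 genes. The exact Poisson 95% interval, 34.6 to 111 per Mb, treats the peaks as independent, which neighbouring peaks are not. The first 100 kb held 0 peaks over 10 protein-coding genes. Of the 25 protein-coding genes in the first 200 kb, 7 lay within 500 bp of a peak and 2 were chemoreceptor genes.

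The group began over picd-1, which encodes a protein with a Cabin1 domain and carried 4 peaks. These were V 109061 to 110127 (score 54.02), V 110806 to 113129 (score 267.30), V 115507 to 117913 (score 117.25) and V 118056 to 119449 (score 53.85). The last of them lay mostly over the next gene, cgp-1, which also carried V 120333 to 121977 (score 132.46). W03F9.1 carried V 124086 to 126157 (score 94.78). The gene sftb-2, which encodes a subunit of the SF3b splicing complex, carried V 128193 to 129613 (score 80.18) and V 129841 to 131385 (score 65.91). These 8 peaks formed the longest run of V in which neighbours were less than 5 kb apart, 22325 bp in all.

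After a stretch without peaks came cul-3, the gene of a cullin scaffold of ubiquitin ligases, with 1 wide peak, V 178359 to 182217 (score 199.26). Its right neighbour arid-1, named for an ARID DNA-binding domain, carried 4 peaks with scores from 92.62 to 209.33, the strongest of them at V 188988 to 190528. No chemoreceptor gene of the tip was at a peak. From the end of this group, 101 kb passed before the next peak, V 301045 to 303954 over F33E11.3 (score 317.81).

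**Figure D2:**
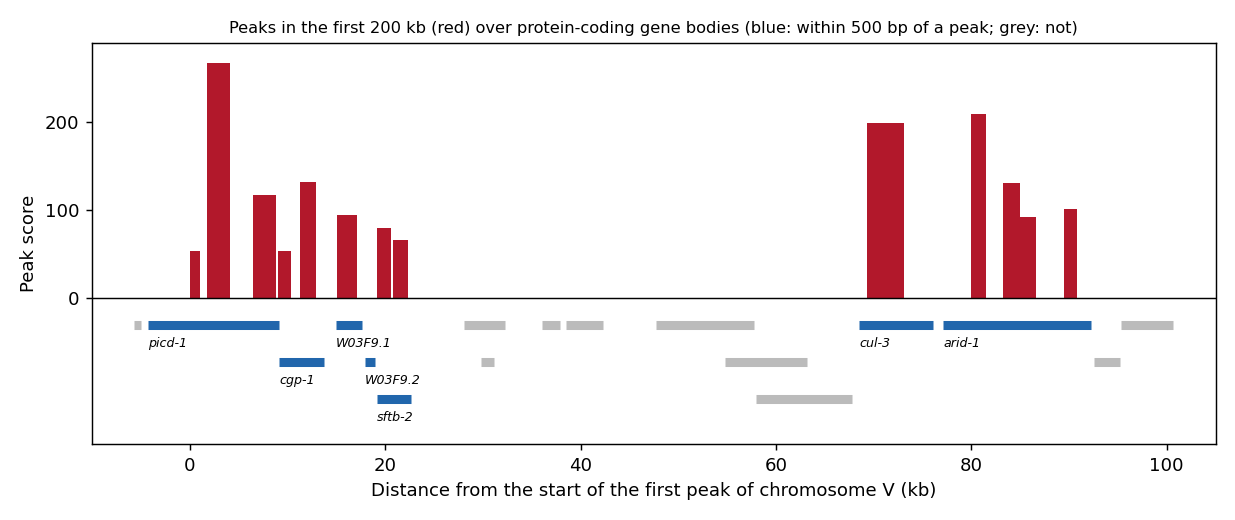
The 13 peaks of the first 200 kb of V (red bars, height is the authors' score, width to scale) above the bodies of protein-coding genes, plotted by distance in kb from the start of the first peak. Blue genes lie within 500 bp of a peak and grey genes do not; picd-1 and arid-1 each carried 4 peaks.

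The strongest peaks lay in the centre. Of the 20 with the highest score, 15 were in the centre, 2 in the left arm and 3 in the right arm. Their scores ran from 406.55 to 1113.84, and the next peak scored 399.03. The 20 were between 1715 and 8678 bp wide, 18 covered more than 500 bp of a gene, and 27 genes were so covered. Peak V 10020525 to 10025508 stood apart with a score of 1113.84, the second being 695.39. It lay wholly inside lea-1, which encodes a protein like those that plants make in late embryogenesis and is known for its part in tolerance to drying.

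The other strong peaks lay over genes of several kinds. The third peak, V 10205529 to 10212026 (score 686.50), spanned rpc-25, a subunit gene of RNA polymerase III, tftc-3, a subunit gene of that polymerase's factor TFIIIC, and zhit-3. The fifteenth, V 10802278 to 10808512 (score 446.13), spanned secs-1, an enzyme of selenocysteine synthesis, and the splicing factor genes prp-38 and plrg-1. The thirteenth, V 8031612 to 8035076 (score 463.35), covered vars-1, a valyl-tRNA synthetase gene, and lay 397 bp from oma-2, a gene of oocyte maturation. V 18982136 to 18983850 (score 426.54) lay over mrps-35 and V 12560728 to 12564625 (score 417.02) over mrps-5 and sel-1, the first 2 encoding mitochondrial ribosomal proteins and the last a protein of quality control in the endoplasmic reticulum.

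The fifth peak, V 12247374 to 12252911 (score 628.96), covered 3873 bp of rad-50, a gene of double-strand break repair. The seventh, V 12043150 to 12047806 (score 563.49), covered pold-1, the catalytic subunit gene of DNA polymerase delta, and F10C2.5. The tenth, V 13176753 to 13180644 (score 496.48), covered him-17, a gene needed for meiotic double-strand breaks. The ninth, V 18882145 to 18884253 (score 541.64), lay inside emb-4, which encodes a protein that binds introns. The twelfth, V 14700453 to 14703949 (score 481.06), lay inside set-5, a gene with a SET domain.

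Another 6 of the 20 lay over genes of mixed kind. The second, V 10315004 to 10319673 (score 695.39), covered asps-1 and B0024.11 and touched trx-2, a mitochondrial thioredoxin gene, and gna-1. The fourth, V 12592495 to 12598561 (score 671.32), covered mma-1 and ril-2. The others lay over gei-6 (score 583.77), the kinase gene mrck-1 (score 455.15), wdr-20 with 54 bp of the SUMO-activating enzyme gene aos-1 (score 444.52) and F25G6.9 (score 406.55).

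A pair of strong peaks had no gene body under most of their width. V 7916662 to 7925339, the eighth by score (542.83) and the widest of V at 8678 bp, touched no protein-coding gene. The noncoding RNA gene Y97E10B.12, of 138 bp, lay wholly under it, and the protein-coding gene srsx-7 lay 443 bp away. V 4332845 to 4337040, the eleventh (score 496.09), was 4196 bp wide and overlapped irld-1, of the insulin and EGF receptor L domain family, by 279 bp. Repeats and base composition were not analysed here, and the caller's use of the input as control is not stated, so their part in these peaks was not tested.

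**Figure D3:**
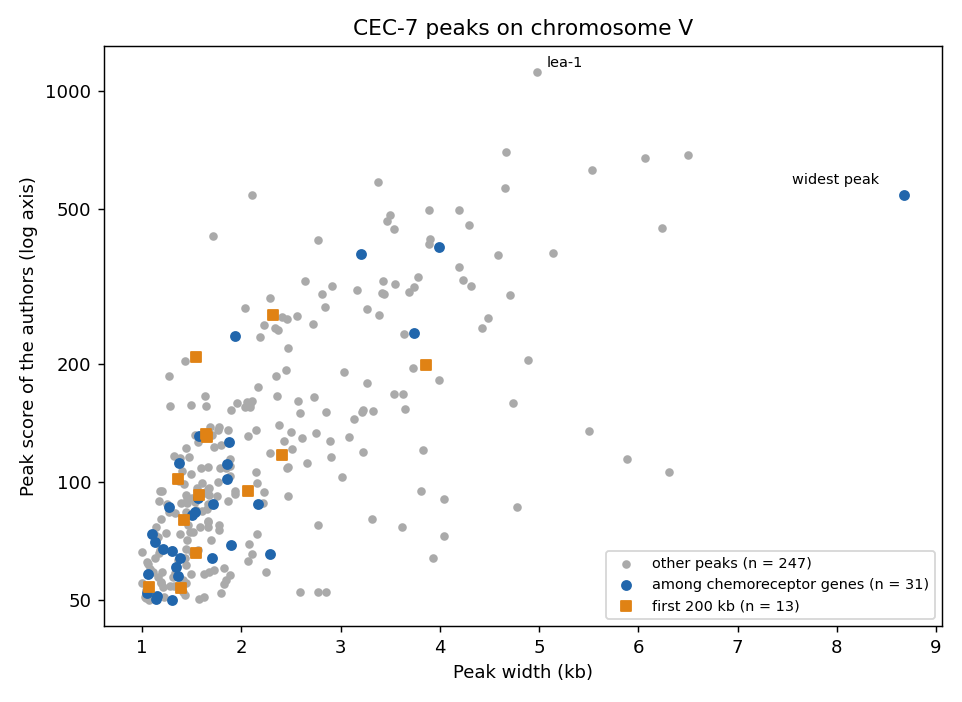
Width in kb against the authors' score (log axis) for the 291 peaks of V, each point 1 peak. Most of the 31 peaks among chemoreceptor genes (blue) sit low and left, with a median score of 82.6; the widest peak, 8678 bp with a score of 542.83, is an exception, and the peak over lea-1 has the highest score, 1113.84.

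Of the 5 widest peaks, 4 were among the 20 strongest. The fifth, V 5826806 to 5833114, spanned 6309 bp with a score of 106.41, close to the median of V, and covered 5999 bp of let-418, which encodes a Mi-2 chromatin remodeller. Several long genes carried separate peaks instead. Of the 337 genes touched by a peak, 8 were touched by 3 or more. Besides picd-1, cand-1 and arid-1 these were hum-2, a myosin gene with 66.1% of its 13.9 kb under 3 peaks, aman-2, a mannosidase gene with 88.7% of its 5.59 kb covered, atl-1, the worm's ATR checkpoint kinase gene, lmd-3 and tdrd-3. With neighbours less than 5 kb apart joined, the 291 peaks formed 197 groups, with a single peak in 134 of them and 3 or more in 21.

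Gene lists by function differed widely in their share at peaks. The lists were made from gene symbols, and in 13 of them, for general cell functions, histones and the germline, sperm included, 46 of 139 genes on V were at a peak, 33.1%. By the stricter rule 34 were, 24.5%. In 8 other lists of gene families and tissues, chemoreceptors left aside, 5 of 536 genes were, 0.933%. Of the 3432 genes in no list, 344 were, 10.0%. The background for V is 8.03% by the first rule. The division into these 2 groups of lists was made after the values were seen, so it supports nothing by itself.

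Meiosis genes were among the most frequently covered. Of 12 on V, 8 were at a peak, and all 8 also passed the stricter rule. Besides rad-50, him-17 and syp-1 they were mre-11, the partner of rad-50 (score 54.42), scc-3, coh-3 and coh-4, which encode cohesin subunits (scores 94.79, 84.66 and 52.35), and sun-1, a nuclear envelope gene needed for pairing (score 50.34). Their scores ran from 50.34 to 628.96, against a range of 50.08 to 1113.84 over all peaks of V. The share of meiosis genes at a peak was 66.7% on V (exact 95% interval 34.9 to 90.1%), beside 8.03% of all genes of V. By the stricter rule the share of all genes of V was 5.79%. On the 4 other autosomes 68.1% of meiosis genes were at a peak, beside 25.3% of all genes there.

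Of 11 genes for RNA polymerases, general factors and mediator, 8 were at a peak and 3 passed the stricter rule, beside 8.03% and 5.79% of all genes of V. The strongest was rpc-25, followed by the mediator genes mdt-28 (score 122.10), mdt-27 (121.55) and mdt-17 (73.59). No peak touched mdt-27 and rpb-9, which lay 115 and 25 bp from one, and mdt-28, taf-10 and gtf-2F2 were overlapped by 39, 351 and 86 bp. The mitochondrial ribosomal protein list gave 6 of 10, with mrps-35, mrps-5, mrps-11 (score 328.97) and the neighbours mrps-2 and mrpl-4 under the same peak (score 309.73). Of the cytosolic ribosomal protein genes, 0 of 7 on V were at a peak (exact 95% interval 0 to 41.0%), which does not separate them from the 8.03% of all genes of V. On the 4 other autosomes 14 of 64 were, 21.9%, beside 25.3% of all genes there. The RNA polymerase and mediator list was at 67.9% on those autosomes and the mitochondrial ribosomal protein list at 49.1%.

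Splicing and translation factors gave 7 of 14, all under the stricter rule too. They were led by vars-1, prp-38 and prp-39 (score 385.94), and prp-6 followed with 88.26. Genes of chromodomain proteins and histone methylation gave 4 of 7, namely set-5, set-31 (score 190.78), let-418 and mes-4. Among oocyte and germ granule genes 4 of 9 were at a peak: oma-2, mes-4 again, tofu-1, a piRNA pathway gene (score 305.23), and mut-15, a gene of small RNA amplification (score 55.43). The genes oma-2 and mut-15 did not pass the stricter rule.

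Heat shock and DNAJ genes gave 4 of 15, namely dnj-22 (score 127.16), hsp-6, the mitochondrial HSP70 gene (77.80), dnj-25 and hsp-90 (52.47). No peak touched dnj-22, which lay 295 bp from one. The cell cycle and replication list gave 1 of 9, rfc-1, a clamp loader gene (score 145.14), a share near the 8.03% of all genes of V. This list, made from symbols, does not count pold-1 and atl-1 among its genes at peaks, although peaks covered both. Its share therefore does not stand for all genes of this kind. Proteasome genes gave 2 of 5, rpt-2 (score 58.21) and pas-1, and oxidative phosphorylation genes 2 of 4, nuo-5 and cox-16 (score 66.17). The gene pas-1 lay 285 bp from a peak, and cox-16 was overlapped by 419 bp, so neither passed the stricter rule. By the first rule, the exact interval was 7.79 to 55.1% for heat shock and DNAJ genes. It was 5.27 to 85.3% for proteasome genes and 6.76 to 93.2% for oxidative phosphorylation genes. Each interval includes 8.03%, so these lists are not separated from all genes of V.

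**Figure D4:**
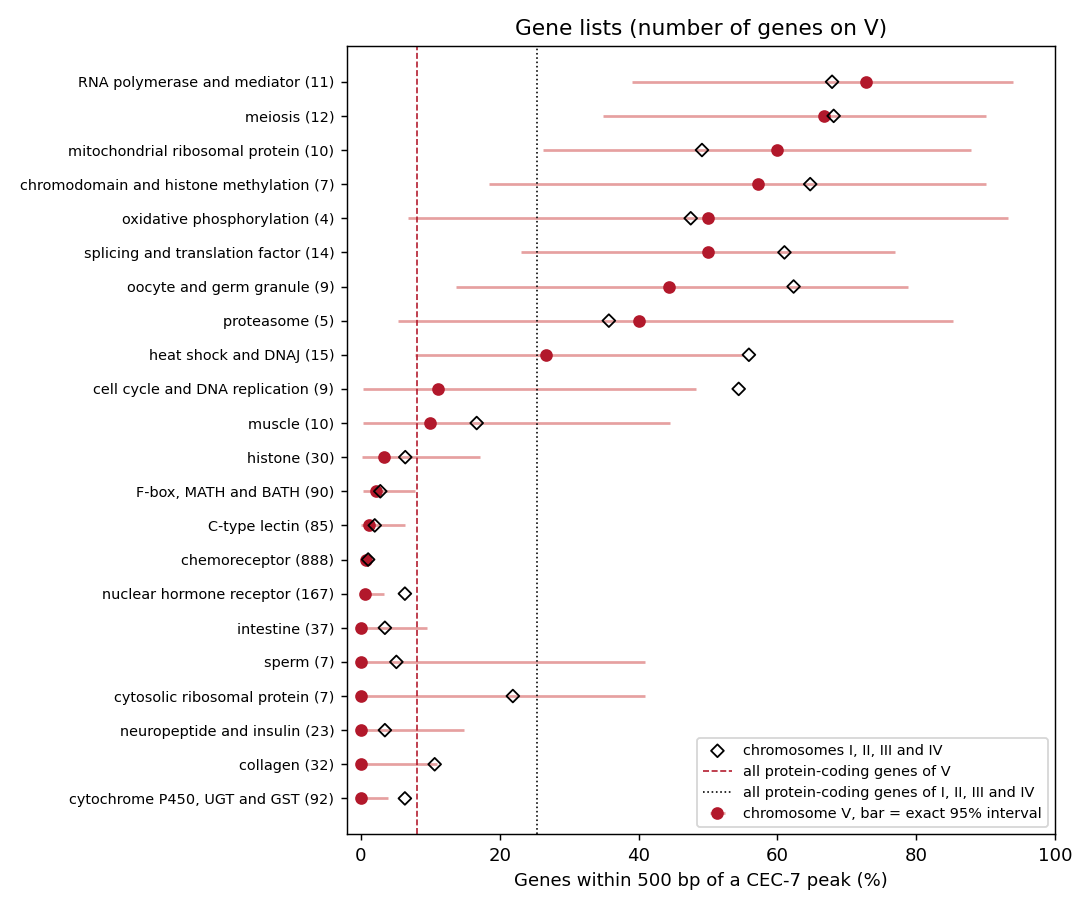
Percentage of each gene list within 500 bp of a peak on V (red, bars are exact 95% intervals that cover counting error only) and on chromosomes I, II, III and IV (open diamonds); vertical lines are the shares of all protein-coding genes, 8.03% and 25.3%. Chemoreceptor genes of V were at 0.676% and meiosis genes of V at 66.7%.

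Other large gene families of V were also nearly free of peaks. Of 167 nuclear hormone receptor genes on V, 1 was at a peak, nhr-44, with 80 bp under a peak of score 102.95. The F-box, MATH and BATH families gave 2 of 90. One was fbxb-72, with 18 bp under the peak over icl-1. The other was math-33 (score 114.68), which encodes a ubiquitin-specific protease with a MATH domain rather than a member of the expanded family. C-type lectins gave 1 of 85, clec-224, with 190 bp under a peak of score 108.79. The cytochrome P450, UGT and GST genes, which act in detoxification, gave 0 of 92.

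Among the tissue lists, collagens gave 0 of 32 and neuropeptides and insulins 0 of 23. The intestine list gave 0 of 37 and the sperm list 0 of 7. The upper ends of their exact intervals were 10.9%, 14.8%, 9.49% and 41.0%, in that order. All lie above the 8.03% of all genes of V, so none of these lists is separated from that share. The muscle list gave 1 of 10, near that share, namely unc-60, whose products are actin-depolymerizing factors (score 57.13). Of 30 histone genes 1 lay at a peak, his-37, by 22 bp, with an interval that reaches 17.2% and so also includes 8.03%. Noncoding genes were counted by class, beside the 8.03% of protein-coding genes of V, without a test. Within 500 bp of a peak were 0 of 78 tRNA genes, 0 of 40 snRNA genes and 0 of 15 rRNA genes. Antisense RNA genes gave 3 of 32 (9.38%), snoRNA genes 4 of 55 (7.27%) and miRNA genes 2 of 28 (7.14%), shares near 8.03%. Genes annotated as ncRNA without a class gave 22 of 1524 (1.44%), pseudogenes 3 of 776 (0.387%) and piRNA genes 2 of 202 (0.990%). Some of these are small genes, to which the stricter rule cannot be applied.

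Chromosome V was set beside the other autosomes, with its large gene families and without them. On I, II, III and IV together 25.3% of 12246 protein-coding genes were at a peak, and 19.3% by the stricter rule. The chemoreceptor, nuclear hormone receptor, F-box, MATH and BATH, and C-type lectin families made up 24.6% of the protein-coding genes of V, against 11.6% on II, 8.14% on IV, 4.69% on III and 3.96% on I. Without these families the share at a peak was 10.4% on V, 17.4% on IV, 24.0% on II, 30.6% on I and 38.8% on III. V was the lowest of the autosomes in both counts, and X was at 0.151%. The part of these families in the low share of V was not tested.

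**Figure D5:**
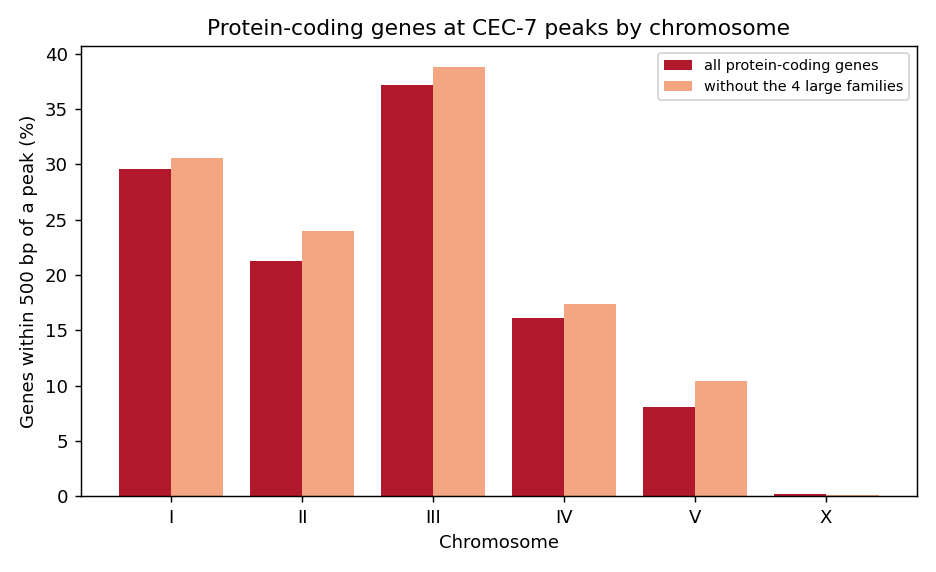
Percentage of protein-coding genes within 500 bp of a CEC-7 peak on each chromosome, for all genes and without the chemoreceptor, nuclear hormone receptor, F-box, MATH and BATH, and C-type lectin families. The share for V was 8.03% with all genes and 10.4% without these families, below the 17.4% of IV in the latter case.

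In the 13 lists of general cell functions, histones and the germline, a group of lists formed after the values were seen, the share at a peak was 33.1% on V, 23.7% on IV, 46.9% on I, 57.6% on III and 53.3% on II. V holds 139 such genes among its 4995, whereas III holds 177 among its 2642. Of all protein-coding genes, 8.03% were at a peak on V, 16.1% on IV, 29.6% on I, 37.2% on III and 21.3% on II. In the 8 family and tissue lists, the share was 0.933% on V and 4.84% on the 4 other autosomes, beside 8.03% and 25.3% of all protein-coding genes. None of these differences was tested, since 1 library stands behind all of them.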

How the data were processed

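ChIP DNA from 1 library was sequenced on Illumina instruments and analysed by the authors. Per the submitters' processing notes, BWA and build ce10 were used, and per the file headers the peaks were called with MACS and placed on WormBase WS220. The deposited score of each peak has no stated scale and was used to describe and rank peaks within this list. No source used here gives MACS's version or settings, the role of the input or the sequencing depth, so peak number and score cannot be set against depth.

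Tables were handled with pandas 2.3.3 and NumPy 2.4.6 in Python 3.11.15, intervals came from SciPy 1.17.1, and figures from matplotlib 3.10.9. Genes were taken from RefSeq's table for WBcel235, another build than that of the peaks. A tolerance of 500 bp was allowed for the offset between the builds, which was not checked here. No coordinate of WBcel235 is printed. The table has no strand, so gene bodies took the place of the gene starts that were planned. The last gene end of a chromosome stood for its length, and arms and centre were 3 equal parts of it. The placement code was run on simulated peaks set deep inside 200 long protein-coding genes of the same table, and it recovered 200 among the 19971 scanned. The stricter rule cannot miss such peaks, so this run checks the code only. It does not test short genes or the offset between the builds. The 22 gene lists and the rules for naming were chosen with earlier results of these data known. Genes named are those at the 20 highest-scoring and 5 widest peaks, in the first 200 kb, among chemoreceptor genes, or up to 4 per list by score. Chemoreceptor genes at peaks were also to be named, but not all of them are reported here by name. Further genes named (those touched by 3 or more peaks, the remaining meiosis genes and genes beside named ones) were chosen after their values were seen, and some genes that the rule takes were left out for length. One of the 20 highest-scoring peaks is not reported here by name. Intervals cover counting error only, and neighbouring peaks are not independent.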

Additional observations from a re-analysis of the deposited data

How the results depend on the processing

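With the higher-scoring 50% of the whole list, V had 115 peaks, 57.4% of them in the centre and 6 among chemoreceptor genes, 202 protein-coding genes were within 500 bp of a peak, and 100% of the peaks were within 500 bp of such a gene. When each arm was only the outermost 25%, the centre held 67.0% of the peaks, over a wider stretch. The number of peaks among chemoreceptor genes was 58 with at least 2 of 10 neighbours and 10 with at least 5. Chemoreceptor genes at a peak numbered 2 with a tolerance of 0 bp and 1 with the stricter rule, which was chosen after the data were seen. The first 100 kb held 0 peaks. Merging peaks less than 1000 bp apart, and a tolerance of 1000 bp, moved no count by more than 1.5 times. The planned results on gene starts were not run, since the gene table has no strand, and the number of neighbours among chemoreceptor genes involves no tolerance. No paired analysis was possible because a single ChIP library has a peak list. With no replicate and unknown depth, sites weaker than the caller's cut-off are not in the list, and the absence of a peak does not show absence of CEC-7.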
